A study of Homo sapiens with 2 samples.

Results

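EGR1, EGR2, EGR3, KLF2, KLF4, KLF5, KLF6, KLF9 and KLF10 are zinc finger transcription factors of the early growth response and Krüppel-like families, and they were followed here across 2 Affymetrix arrays of MKN28, an established human gastric cancer cell line that registers list as a derivative of the gastric line MKN74. One array read RNA of MKN28 cells labelled as overexpressing Sox2, made with a lentivirus that carries Sox2 and puromycin resistance and kept under puromycin. The other read RNA of MKN28 cells labelled control, and the labels do not state a virus or a selection for them. There was 1 array per group and no replicate, so no difference below has a replicate error and none could be tested.

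The 9 genes were chosen by earlier results on these same arrays, and 8 of them are among the 19775 genes with a probe set of their own here. The intensities and log2 differences given below are therefore a description and lend no support to a change of the family. A probe set is a group of short probes that reads a stretch of a transcript, and every probe set that the platform annotation assigns to 1 of these genes and to no other was used. This gave 21 probe sets for the 8 genes. EGR2 was not analysed here.

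EGR1, EGR2 and EGR3 are immediate early factors: growth factor signals that pass through ERK and serum response factor (SRF) switch their genes on without new protein synthesis, and the NAB co-repressors limit what they do. Krüppel-like factors bind GC-rich and CACCC sequences through zinc fingers near their C-terminus. In the digestive tract KLF5 is found in dividing epithelial cells and KLF4 in differentiated ones, and KLF4 is also a reprogramming factor alongside SOX2. KLF2, KLF4, KLF6 and KLF10 can respond early to external signals, and KLF9 is induced by glucocorticoid and thyroid hormone.

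The promoter sequences of EGR1 and KLF6 are shown because these were the members at least 2-fold higher in the Sox2-labelled array by the probe set with the highest mean level. Both are the 250 bases before the RefSeq gene start on GRCh38.p14, written 5′ to 3′ on the strand of the gene, with EGR1 at chr5:138465229-138465478 on the plus strand and KLF6 at chr10:3785210-3785459 on the minus strand. Capitals mark CArG boxes, the SRF motif, in EGR1 and GC boxes, the letters GGGCGG on either strand, in KLF6.
EGR1: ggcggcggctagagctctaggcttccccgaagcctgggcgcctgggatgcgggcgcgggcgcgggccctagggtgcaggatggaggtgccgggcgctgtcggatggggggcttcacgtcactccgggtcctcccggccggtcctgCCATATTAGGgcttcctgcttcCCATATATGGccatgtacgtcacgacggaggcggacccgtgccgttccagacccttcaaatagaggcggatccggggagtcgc
KLF6: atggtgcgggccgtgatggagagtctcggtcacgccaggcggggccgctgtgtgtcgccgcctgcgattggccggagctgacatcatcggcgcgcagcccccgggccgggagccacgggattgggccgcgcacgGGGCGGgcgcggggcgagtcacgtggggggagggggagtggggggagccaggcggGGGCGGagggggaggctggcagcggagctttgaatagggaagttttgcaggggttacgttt

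The RefSeq table matched 7 of the 9 members by symbol, all but EGR3 and KLF10, and the windows of EGR2, which has no values here, are not described. The window of EGR1 held 2 CArG boxes, CCATATTAGG and CCATATATGG, which end 95 and 73 bases before the start. Of 35116 promoter windows in the RefSeq table, 1.16% held such a box on either strand. The windows of that table run on past the gene start, to 138465528 for EGR1, and so are longer than the sequences shown. None was found in the windows of KLF2, KLF4, KLF5, KLF6 or KLF9. GC boxes were found 2 times in KLF6, 4 times in KLF2, 4 times in KLF4 and 2 times in 1 of the 2 KLF5 windows, against none in EGR1 and KLF9, and 42.6% of all windows held one. The EGR motif GCGNGGGCG was found 1 time each in EGR1, KLF2, KLF4 and KLF6 and overlapped a GC box in the last 3, and 8.41% of all windows held it. A match is a stretch of letters and not a site of binding, and the arrays say nothing about binding.

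The arrays were checked before the members were described. The deposited values are intensities on a linear scale, with medians of 34.25 and 34.26 in the Sox2-labelled and control-labelled arrays. A probe set was taken as past the filter when it reached 34.25, the median of all values, in at least 1 array. SOX2 itself read 172.12 in the Sox2-labelled array against 122.87 in the control by its probe set of highest mean level. The others read 27.37 against 22.15, 38.44 against 39.05 and 11.43 against 15.72. In that order the log2 differences were 0.49, 0.31, -0.02 and -0.46, and the probe sets of 0.31 and -0.46 were below the filter. The first was thus higher by less than 2-fold, and the probe sets of the target gene did not share a direction. For this reason the arrays are named by their labels throughout. Transcripts spiked into the RNA before labelling read lower by all 24 of their probe sets in the Sox2-labelled array, by a median of -0.75 on the log2 scale. The part of that in the differences below was not tested. Of 8 epithelial markers, 7 were past the filter, EPCAM stood at 4.96 against 6.32, and their summed intensities were 502 against 541. Of the endothelial markers 6 of 6 were past the filter, with summed intensities of 414 against 421. The same held for 3 of 5 leukocyte markers (251 against 250) and 5 of 6 fibroblast markers (1196 against 1141). No marker past the filter differed by 2-fold. Markers of several cell types thus passed the filter in a single cell line, so passing it does not show that a gene was expressed.

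The size of a difference was judged against the disagreement between probe sets of the same gene. For KLF4 and KLF6 its place among probe sets of a like mean level is also given. Neither is a spread between replicates. From 3471 genes with exactly 2 probe sets past the filter, the SD of the log2 difference of a single probe set was 0.28. This SD is called technical here, is a single value for all intensity levels, and leaves out variation between cultures and arrays. Any real difference between the transcripts that 2 probe sets read would also enter it, which was not tested.

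Of the 8 genes read, EGR1 and KLF6 were at least 2-fold higher in the Sox2-labelled array by their probe set of highest mean level, and no member was 2-fold lower. KLF9 and KLF4 were higher by less than 2-fold, EGR3 and KLF5 were higher by less than the technical SD, and KLF2 was lower by less than it. KLF10 was below the filter in both arrays. In bulk RNA, fewer cells with a transcript and less of it per cell cannot be told apart. Over the 7 members past the filter, 2 were at least 2-fold higher and 5 differed by less than 2-fold, with a median log2 difference of 0.51. Among all 14253 genes past the filter, 2.05% were at least 2-fold higher and 0.645% at least 2-fold lower, with a median of -0.0032. The 2 medians were not matched for intensity level, and that of the members is the value of KLF4. With all probe sets of a gene averaged, 0 of 7 members reached 2-fold. In that setting 63 of 11168 genes past the filter were at least 2-fold higher and 43 lower. The members were chosen on this contrast, so nothing is read from the gap between these shares.

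**Figure D1:**
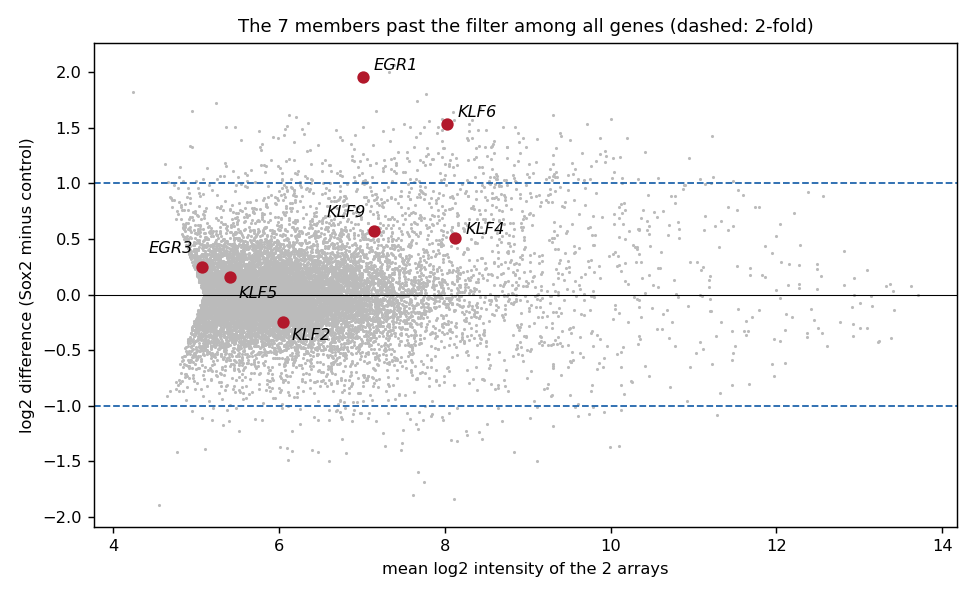
Log2 difference (Sox2 minus control) against the mean log2 intensity of the 2 arrays for 14253 genes past the filter, each by its probe set of highest mean level (grey), with the 7 members past the filter in red and 2-fold marked by dashed lines. EGR1 at 1.96 and KLF6 at 1.53 lie above the upper line, and the other 5 members lie between the lines.

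EGR1, the best known immediate early member of its family, gave opposite answers by different probe sets. The gene lies at chr5:138465479-138469303 on GRCh38.p14. Probe set 201694_s_at read 254.4 in the Sox2-labelled array against 65.61 in the control, which is 1.96 on the log2 scale or 3.88-fold, and ranked 3 in the upward direction among the 14253 genes. Probe set 227404_s_at read 79.08 in the Sox2-labelled array against 139.51 in the control, which is -0.82 on the log2 scale or 1.76-fold lower. The remaining probe set, 201693_s_at, was below the filter at 26.25 against 26.77, a log2 difference of -0.03. One EGR1 probe set was thus higher, one lower and one nearly equal in the Sox2-labelled array.

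The 2 EGR1 probe sets past the filter differed from each other by 2.77 on the log2 scale. This gap had a median over the 3471 genes with 2 such probe sets of 0.26 and a 90th percentile of 0.77, and no other gene reached the gap of EGR1. Of 101 such genes whose probe set of highest mean level was at least 2-fold higher, 70 had both probe sets above 0. EGR1 is not one of the 70, and the median gap of the 101 genes was 0.81. Averaged over its 3 probe sets, EGR1 differed by 0.37 on the log2 scale, or 1.29-fold. The direction of EGR1 therefore depends on which probe set is read. All 3 carry the suffix _s_at, which marks probes shared by several transcripts, and where each lies on the transcript is not given in the sources used here.

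EGR3, induced with EGR1 in many cells, had a single probe set, which passed the filter by its Sox2-labelled value alone. It read 36.78 in the Sox2-labelled array against 30.97 in the control, a log2 difference of 0.25 that is smaller than the technical SD of 0.28. With 1 probe set, EGR3 has no check of agreement.

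**Figure D2:**
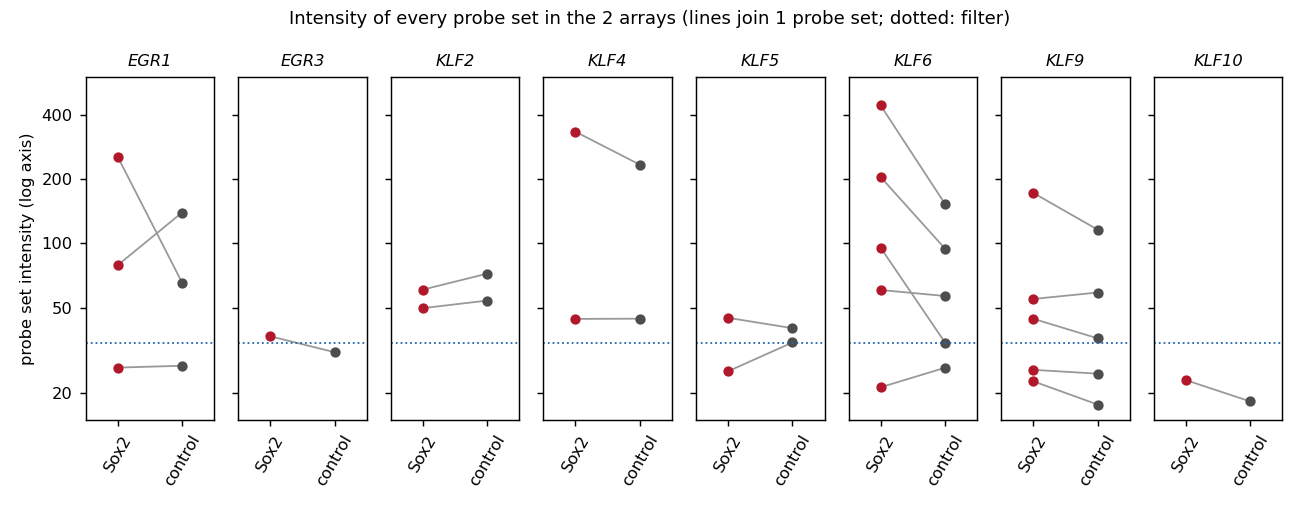
Intensity (log axis) of each of the 21 probe sets of 8 genes in the Sox2-labelled array (red, left) and the control-labelled array (grey, right), with lines that join the values of a probe set and a dotted line at the filter of 34.25. Lines of EGR1 cross, 4 of the 5 KLF6 lines start above their control value, and KLF10 lies below the filter in both arrays.

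KLF6, first described as a regulator of placental genes and induced by injury in liver, was the member with the most probe sets at least 2-fold higher. The gene lies at chr10:3775996-3785209 on GRCh38.p14. Probe set 208961_s_at read 442.03 in the Sox2-labelled array against 153.01 in the control, which is 1.53 on the log2 scale or 2.89-fold, and ranked 23 among all genes past the filter in the upward direction. Probe set 1555832_s_at read 95.45 against 34.36 in the control, a difference of 1.47 or 2.78-fold, with its control value just above the filter. Among probe sets of a like mean level, these differences lay at the 98.9th and 99.9th percentiles.

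Probe set 224606_at read 204.31 in the Sox2-labelled array against 94.5 in the control, which is 1.11 on the log2 scale or 2.16-fold. Probe set 208960_s_at read 60.57 against 56.75 in the control, a difference of 0.09 that is within the technical SD. The fifth, 211610_at, was below the filter at 21.24 against 26.2 in the control, a difference of -0.30. KLF6 was thus higher by 3 probe sets at more than 2-fold, nearly level by another and lower by the dimmest.

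All 4 KLF6 probe sets past the filter lay above 0, which also held for 61 of 469 genes with as many (13.01%). Their log2 differences spanned 1.44, against a median span of 0.55 in those 469 genes, and 20 of the genes, KLF6 included, spanned as much. Of 24 such genes with a probe set of highest mean level at least 2-fold higher, 7 had all 4 above 0, KLF6 among them. The median span of those 24 genes was 1.39, close to that of KLF6. The mean over the 5 probe sets was 0.78 on the log2 scale, or 1.72-fold, so the probe sets of KLF6 shared a direction past the filter but not a size.

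Over all members, 16 of the 21 probe sets were past the filter. Of these, 4 were at least 2-fold higher, 1 of EGR1 and 3 of KLF6, none was 2-fold lower and 12 differed by less than 2-fold. Among the 22938 probe sets with a single gene past the filter, 1.97% were at least 2-fold higher and 0.523% at least 2-fold lower. Of the 21 probe sets, 13 were higher and 8 lower in the Sox2-labelled array, and 9 differed by no more than the technical SD. These counts take in probe sets below the filter and several of the same gene. Past the filter 10 were higher and 6 lower, while 49.6% of all genes past the filter were higher.

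**Figure D3:**
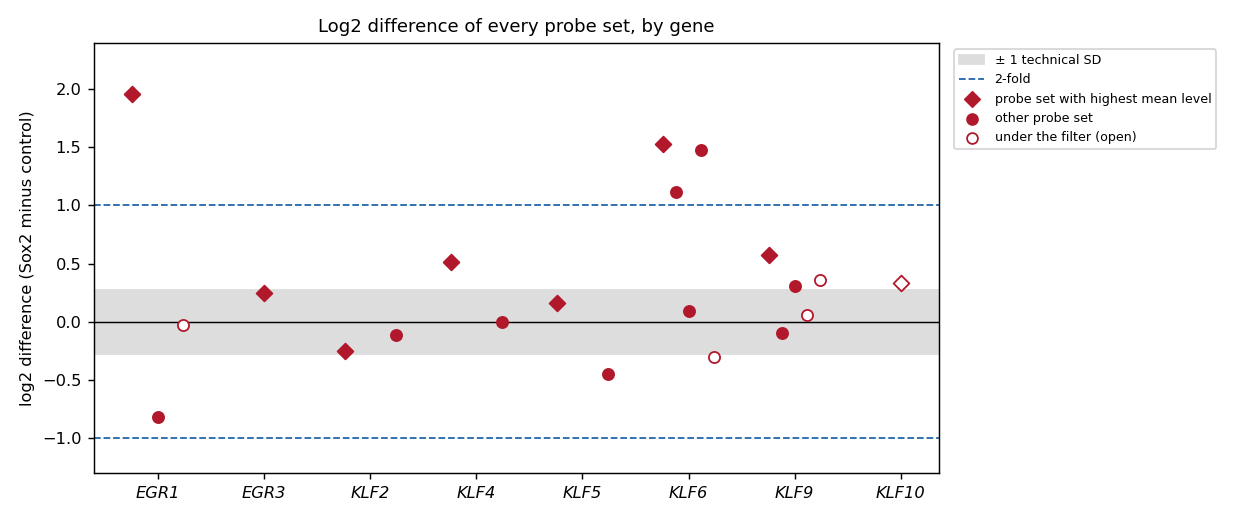
Log2 difference (Sox2 minus control) of each probe set by gene, with the probe set of highest mean level as a diamond, other probe sets as circles, those below the filter open, ± 1 technical SD (0.28) shaded and 2-fold dashed. The EGR1 values run from -0.82 to 1.96, 3 KLF6 values lie above 2-fold, and most of the other values lie near the shaded band.

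KLF4, which restrains proliferation in gut epithelium, was higher by a probe set and level by another. Probe set 221841_s_at read 333.21 in the Sox2-labelled array against 233.57 in the control, which is 0.51 on the log2 scale or 1.43-fold. Probe set 220266_s_at read 44.35 against 44.46 in the control, a log2 difference of -0.0036, the sign of which turned under lowess centring. Among probe sets of a like mean level the difference of 0.51 lay at the 65.9th percentile. Among all single-gene probe sets past the filter it lay at the 92.1st, so differences of this size were more common at that level.

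KLF5, which promotes proliferation in the crypts of the gut, had probe sets on both sides of 0. One read 44.87 in the Sox2-labelled array against 40.13 in the control (log2 difference 0.16). The other read 25.23 against 34.4 in the control (log2 difference -0.45), and passed the filter by its control value alone. Neither direction was shared by both, and their mean was -0.14.

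KLF2, known for its response to blood flow in endothelium and for quiescence of T cells, was the only member with several probe sets all on the same side of 0. One read 60.82 in the Sox2-labelled array against 72.23 in the control (log2 difference -0.25). The other read 49.81 against 54.04 in the control (log2 difference -0.12). Both were lower in the Sox2-labelled array by less than the technical SD. Of genes with 2 probe sets past the filter, 26.5% had both below 0.

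KLF9, a target of the glucocorticoid receptor, was higher by 4 of its 5 probe sets, by less than 2-fold in each. The probe set of highest mean level read 172.33 in the Sox2-labelled array against 116 in the control, which is 0.57 on the log2 scale or 1.49-fold. The others past the filter read 44.41 against 35.97 in the control (log2 difference 0.30) and 54.98 against 58.94 in the control (log2 difference -0.10). Those below the filter read 22.64 against 17.63 (log2 difference 0.36) and 25.62 against 24.59 (log2 difference 0.06). The mean over the 5 was 0.24, or 1.18-fold.

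KLF10, induced early by TGF-beta and a repressor that recruits SIN3A, was read by 1 dim probe set at 22.93 in the Sox2-labelled array against 18.23 in the control. The log2 difference was 0.33. The intensities lay at the 33.7th and 26.5th percentiles of all probe sets in the Sox2-labelled and control-labelled arrays, so KLF10 was below the filter and enters, of the counts above, only those over all 21 probe sets.

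**Figure D4:**
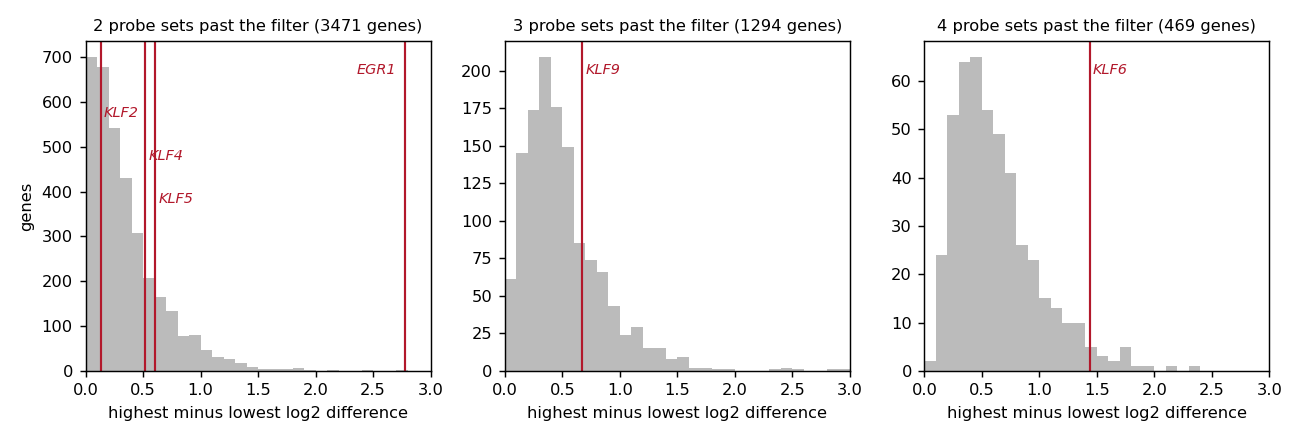
Histograms of the span between the highest and the lowest log2 difference among probe sets of a gene, for genes with 2, 3 and 4 probe sets past the filter (3471, 1294 and 469 genes), with members as red lines. EGR1 at 2.77 lies beyond all other genes with 2 probe sets, KLF6 at 1.44 in the upper tail of genes with 4, KLF9 at 0.67 above the middle of genes with 3, and KLF2 at 0.13 below the middle of genes with 2.

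The 6 members with several probe sets gave 26 pairs of probe sets of the same gene. In 14 pairs both members of the pair had the same sign, and in 12 the signs were opposite. KLF6 and KLF9, with 5 probe sets each, gave most of the pairs, and probe sets below the filter were included. Pairs were not counted over all genes. Of genes with 2, 3 and 4 probe sets past the filter, 52.5%, 31.8% and 21.3% had all of these on the same side of 0. The spans of KLF4 (0.52) and KLF5 (0.61) lay at the 77.9th and 83.2nd percentiles of genes with 2 probe sets past the filter, that of KLF9 (0.67) at the 75.3rd of genes with 3, that of KLF6 at the 95.9th of genes with 4, and that of KLF2 (0.13) at the 26.4th of genes with 2. Probe sets of 5 of these 6 members spanned more than those of most genes with as many. Genes at least 2-fold higher by their probe set of highest mean level had median spans of 0.81, 1.25 and 1.39. These are for genes with 2, 3 and 4 probe sets past the filter. The members were chosen on these same differences, so nothing is read from the width of their spans.

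Relatives of the members were read as lists that were chosen with earlier results of these data known. Of 20 other Krüppel-like and SP factors, which share the zinc finger type, 15 were past the filter, 2 at least 2-fold higher, none 2-fold lower and 13 under 2-fold, with a median log2 difference of 0.23. SP4, a neuronal SP factor, read 96.28 in the Sox2-labelled array against 45.23 in the control (log2 difference 1.09). SP1, an activator found in most cells, read 56.46 against 27.01 (log2 difference 1.06), and passed the filter by its Sox2-labelled value alone. A second SP1 probe set gave 0.89.

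EGR4, the kidney factor WT1 and the co-repressors NAB1 and NAB2 were all past the filter and under 2-fold, with a median of 0.17. The largest of these was NAB1, at 45.27 in the Sox2-labelled array against 33.9 in the control (log2 difference 0.42). NAB2, itself a target of EGR1 and named after its values were seen, read 48.8 against 45.24 in the control (log2 difference 0.11).

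Upstream of the EGR genes, 13 of 19 listed SRF partners and ERK cascade genes were past the filter and none differed by 2-fold by its probe set of highest mean level, with 4 above and 9 below 0 and a median of -0.06. The largest difference was that of MRTFB, an SRF coactivator, at 861 in the Sox2-labelled array against 446 in the control (log2 difference 0.95), while 2 further MRTFB probe sets gave 0.15 and 0.24. CREB1, a factor activated by cAMP and ERK signals, differed by -0.0038 there, but 3 further CREB1 probe sets ran from 0.30 to 1.195, past 2-fold at the upper end. SRF read 85.76 against 120.15 in the control (log2 difference -0.49), and a second SRF probe set gave -0.40. SRF was named after its values were seen, because the CArG boxes of EGR1 are its motif, and CREB1 for its further probe sets.

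Upstream of KLF2 and KLF4, 6 of 8 genes of the ERK5 kinase and MEF2 axis were past the filter and none differed by 2-fold by its probe set of highest mean level (median 0.18). MEF2A, a MADS-box factor, read 550 in the Sox2-labelled array against 277 in the control (log2 difference 0.99), and 3 further MEF2A probe sets ran from -0.07 to 1.40.

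Of 22 other immediate and delayed early genes, 18 were past the filter, 1 was at least 2-fold higher, none lower and 17 under 2-fold, with a median of 0.06. The one was SGK1, a kinase induced by serum and glucocorticoid, at 916 in the Sox2-labelled array against 419 in the control (log2 difference 1.13). It also stands in the glucocorticoid list, where 9 of 11 genes were past the filter, 2 at least 2-fold higher and 7 under 2-fold (median 0.21). The other was ERRFI1, an inhibitor of the EGF receptor, at 554 against 186 in the control (log2 difference 1.57).

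Of 15 genes described as targets of EGR1, 12 were past the filter, 1 at least 2-fold higher, none lower and 11 under 2-fold, with 3 above and 9 below 0 and a median of -0.13. PDGFA, a growth factor chain, read 948 in the Sox2-labelled array against 455 in the control (log2 difference 1.06), but a second PDGFA probe set gave 0.16. PDGFA was also the 1 gene at 2-fold among the KLF4 and KLF5 targets, where 11 of 12 were past the filter (median 0.11). CDK1, the kinase of mitotic entry named after its values were seen, differed there by 0.11, and 2 further probe sets gave -1.003, which is 2-fold lower, and 0.13. Of 16 TGF-beta response genes 14 were past the filter, none differed by 2-fold by its probe set of highest mean level and 7 lay on each side of 0 (median 0.02). By that probe set SMAD2, which carries the signal, differed most, at 237 against 143 in the control (log2 difference 0.73), while 2 further SMAD2 probe sets past the filter lay between -0.09 and 0. SKIL, a repressor of SMAD signals named after its values were seen, gave -0.23 by that probe set and 1.13 by a second.

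**Figure D5:**
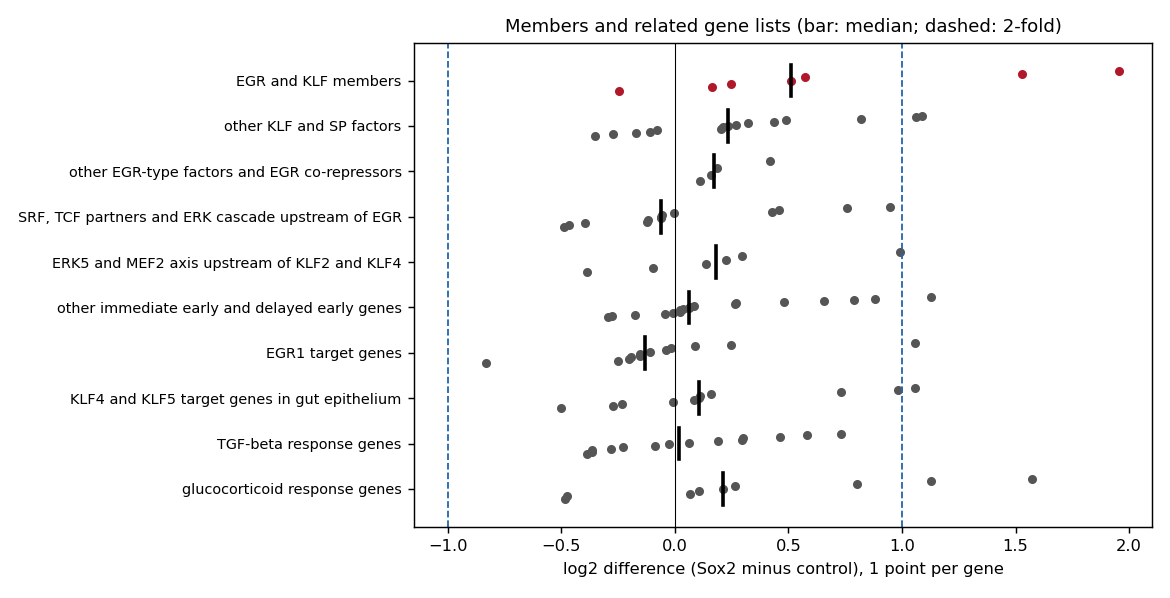
Log2 difference (Sox2 minus control) of each gene past the filter, by its probe set of highest mean level, for the members (red) and 9 lists of relatives, upstream genes and targets (grey), with the median of each as a bar and 2-fold dashed. The bar of the members lies at 0.51, and those of the 9 lists between -0.13 and 0.23.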

How the data were processed

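Biotin-labelled cRNA of 2 MKN28 samples was read on 1 Affymetrix array each (54675 probe sets). The authors deposited 1 linear intensity for each probe set and array. The submitters' processing notes name no tool but RMA, with version and last step not given in the sources used here. No detection call could be made without probe-level data, which were not analysed here, and the number of arrays limits the precision.

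Intensities were taken to log2 as they stood, and differences are Sox2 minus control. Of 19777 gene identifiers on probe sets that the platform annotation assigns to a single gene, 19735 matched RefSeq (GRCh38.p14). Besides 62 control probe sets, 41091 had a single gene, 1801 had several and 11721 were unnamed. A gene was represented by its probe set of highest mean log2 value and counted at 2-fold, and no p-value was computed. The technical SD is the median absolute deviation of the gap between 2 probe sets, scaled to an SD and to a single probe set. Places among probe sets of a like level used 20 equal bins of mean level. The counting was checked on simulated data with normal noise, where all probe sets of a changed gene had the same fold. That check does not cover genes whose probe sets disagree.

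Members, lists and alternatives were chosen with earlier results of these data known. Named were all members and, of each list, up to 3 genes at 2-fold, or the 1 with the largest difference. SRF, CREB1, NAB2, SKIL and CDK1 were added after their values were seen. With 1 difference per gene, likeness of pattern to other genes was not measured. Alternatives covered the choice of probe set, the filter, 3 scalings (median centring, lowess with span 0.3, quantile), a pseudocount of 16 and the fold. Python 3.11.15, numpy 2.4.6, pandas 2.3.3, SciPy 1.17.1, statsmodels 0.14.6 and matplotlib 3.10.9 were used.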

Additional observations from a re-analysis of the deposited data

How the results depend on the processing

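With 1 array per group, no culture or array variation could be measured. No probe set has a detection call, which matters most for dim ones such as those of EGR3, KLF5 and KLF10. Scaling changed no count of members: under median centring, lowess and quantile normalization EGR1 and KLF6 stayed the members at 2-fold. The members' median log2 difference, 0.51 as deposited, was 0.44 under lowess and 0.35 under quantile normalization. In the main setting 292 of 14253 genes past the filter were at least 2-fold higher and 92 lower. The number of genes counted changes with some of the settings. With the mean over all probe sets, 0 of 7 members were at least 2-fold higher. In that setting 63 of 11168 genes were higher and 43 lower. Leaving out _x_at and _s_at probe sets, which may cross-hybridise, EGR1, KLF4, KLF9 and KLF10 had none left. Of the 4 members then past the filter, 1 (KLF6, at 1.11) was at least 2-fold higher, and their median was 0.065. In that setting 172 of 11031 genes were higher and 61 lower. With no filter 177 of 19775 genes were lower, and with a pseudocount of 16 there were 48 of 14254. At 1.5-fold 921 of the 14253 genes were higher and 537 lower. At 3-fold 14 of the 14253 were higher and 5 lower, with 1 of 7 members, EGR1, among the higher. Of those counted, 76.0% were higher as deposited and 64.5% after quantile normalization. Of 68 member values under alternatives, 61 moved by less than the technical SD and 7 by more, those of EGR1, KLF5, KLF6 and KLF9. The sign turned in 3, all of KLF5. EGR1 fell to 0.37 and KLF6 to 0.78 when probe sets were averaged.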
